A study of Mus musculus with 3 samples.

Results

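This report describes 448 weakly scored peaks of H3K4me3 that lay far from any called peak of H3K27ac in cultured mouse leukaemia cells. They are 2.47% of the 18142 peaks of H3K4me3 in the deposited list. Each had a score below 500, shared no base with a peak of H3K27ac, and was separated from the nearest H3K27ac peak on its chromosome by more than 100 kb. The cells were acute lymphoblastic leukaemia cells of the mouse precursor B (pre-B) stage, driven by the Bcr-Abl fusion kinase, grown with 10% serum and neither stimulated nor treated. All samples shared this cell type and culture, and the labels do not say whether the cells descend from 1 clone. Chromatin immunoprecipitation and sequencing was made with 1 library each for histone H3 acetylated at lysine 27 (H3K27ac), histone H3 trimethylated at lysine 4 (H3K4me3) and control immunoglobulin (IgG). The IgG library was not analysed here, so the signal of these sites in the control is not known. Depth is unknown, and no value has a replicate error. Intervals are exact 95% binomial intervals for shares, exact Poisson intervals for peaks per Mb and order-statistic intervals for medians, and they assume independent peaks and count only sampling error. No test between samples was possible with 1 library per mark. The labelled cell type was not checked against marker genes, because no gene annotation of the mm9 build was used. Positions are on mm9, counted from 1.

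H3K4me3 is deposited at the start sites of genes by methyltransferase complexes that are drawn to unmethylated CpG-rich DNA and to active polymerase. H3K27ac marks active promoters and enhancers. Lysine 27 can carry acetylation or methylation but not both, and at many promoters of developmental genes that are silent in a given cell, H3K4me3 is low and lies together with the Polycomb mark H3K27me3. H3K27me3 was not measured in these samples, and weak H3K4me3 without acetylation is not by itself evidence of that state.

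The peaks were chosen by their score and by their position relative to H3K27ac, so these values are given first, as a description. The authors assigned the score, and neither the files nor the labels say how it was calculated. Scores of the 448 peaks ran from 50.05 to 497.87 with a median of 107 (quartiles 70.8 and 196), and 208 of them (46.4%) scored below 100, against 12% of all H3K4me3 peaks, a contrast that the score limit brings about. Among the 1653 weak peaks without H3K27ac at smaller gaps, 711 (43.0%) did. The lowest score of the whole list was 50.01, so 59 of the 448 peaks, with scores of 60 or less, were close to the calling limit. Gaps to H3K27ac ran from 100.1 to 8743 kb with a median of 233 kb (quartiles 146 and 431 kb). For 191 peaks the gap was under 200 kb and for 28 it was over 1000 kb. The largest gap, 8743 kb, belonged to a peak on a collection of Y contigs that mm9 does not place (12197009 to 12197777), where the order and spacing of the pieces are not those of a chromosome.

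Peaks next to either limit show how it divided neighbours. The 5 peaks with the lowest scores above the score limit measured 641 to 2205 bp and scored 507.82 to 534.58, and the first of them lay on chromosome 3 (72857058 to 72858384). The highest-scoring peak below the limit, also on chromosome 3 (104855491 to 104856576), scored 497.87. At the other limit, the nearest peak inside lay on chromosome 7 (67636691 to 67637188) at 100.095 kb from H3K27ac, and the nearest outside lay on chromosome 11 (110028576 to 110029526) at 99.998 kb. Neither limit falls at a break in the values.

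The isolated weak peaks were narrow, and they were narrower than other weak peaks of like score. Their median width was 632 bp (interval 600 to 665 bp, quartiles 490 and 804 bp, range 196 to 2267 bp). Width was not part of the rule. Only 43 of the 448 (9.60%, interval 7.03 to 12.7%) reached 1000 bp, against 75.3% of all H3K4me3 peaks, most of which score higher. Since width goes with score in called peaks, weak peaks were compared within classes of score. Scores inside a class were not matched further. The comparison groups were 1653 weak peaks without H3K27ac at a gap of at most 100 kb and 3956 weak peaks that overlapped H3K27ac. Over all their scores, 17.5% of the former (interval 15.7 to 19.5%) and 36.8% of the latter (interval 35.2 to 38.3%) reached 1000 bp.

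At scores of 50 to 100, the median width was 546.5 bp for the isolated peaks (interval 517 to 578 bp, n = 208), 582 bp for those nearer to H3K27ac (interval 564 to 597 bp, n = 711) and 642 bp for those overlapping it (interval 634 to 656 bp, n = 1251). At scores of 100 to 200 the medians were 701 bp (interval 665 to 756 bp, n = 132), 761.5 bp (interval 736 to 786 bp, n = 518) and 896 bp (interval 879 to 908 bp, n = 1225). At scores of 200 to 500 they were 879 bp (interval 774 to 942 bp, n = 108), 1007 bp (interval 983 to 1038 bp, n = 424) and 1141.5 bp (interval 1125 to 1158 bp, n = 1480). The order was the same in all 3 score classes: isolated, then nearer, then overlapping. The intervals of isolated and overlapping peaks were apart in each class. Those of isolated and nearer peaks were apart only at scores of 200 to 500. Width did not fall steadily with distance among weak peaks without H3K27ac. Over all their scores, on placed chromosomes, the median was 669.5 bp under 10 kb from H3K27ac (interval 647 to 702 bp). It was 728 bp at 10 to 25 kb, 742 bp at 25 to 50 kb and 715 bp at 50 to 100 kb. At 100 to 200 kb it was 666 bp (interval 624 to 701 bp), close to that of the nearest peaks. At 200 to 500 kb it was 644.5 bp (interval 599 to 698 bp). The lowest median was 546 bp at 500 kb to 1 Mb (interval 508 to 598 bp), with an interval below that of each nearer class. Over 1 Mb it was 620 bp (interval 512 to 754 bp). The median thus fell from 25 to 50 kb out to 500 kb to 1 Mb, but not before or beyond. Scores were not matched across these distances.

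**Figure D1:**
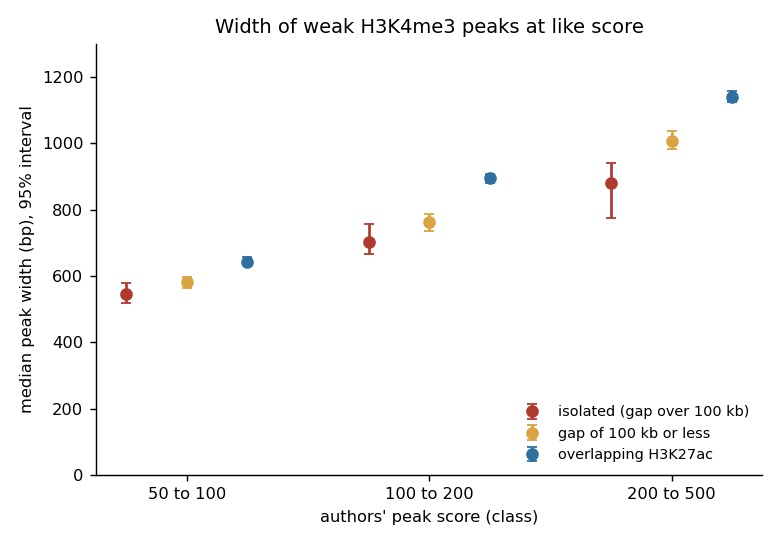
Median width in bp of weak H3K4me3 peaks in 3 classes of the authors' score, for isolated peaks, peaks at a gap of 100 kb or less from H3K27ac and peaks overlapping H3K27ac; bars are 95% order-statistic intervals. Isolated peaks have the lowest median in each class, at 879 bp against 1007 and 1141.5 bp in the highest class.

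Among the isolated peaks, width followed score less closely than in the other groups. Spearman's rho between score and width was 0.43 over the 448 isolated peaks, 0.60 over the 1653 nearer ones and 0.69 over the 3956 overlapping ones. These are descriptions across peaks of a single library, and peaks of the same score can differ in shape and in local background. The isolated peaks also included more that were narrow for their score. Of the 108 isolated peaks scoring 200 or more, 29 (26.9%, interval 18.8 to 36.2%) were narrower than 600 bp, a limit chosen after the widths were seen. The share was 10.4% (interval 7.64 to 13.7%) of the 424 nearer peaks, 5.14% (interval 4.07 to 6.39%) of the 1480 overlapping peaks and 7.41% of all 2012 H3K4me3 peaks in that score range. With limits of 400, 500 and 700 bp the isolated share was 10.2, 16.7 and 32.4%, and the nearer share was 4.25, 8.25 and 15.3%. The isolated share was the higher at each limit, although the intervals overlapped at 400 and 500 bp.

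**Figure D2:**
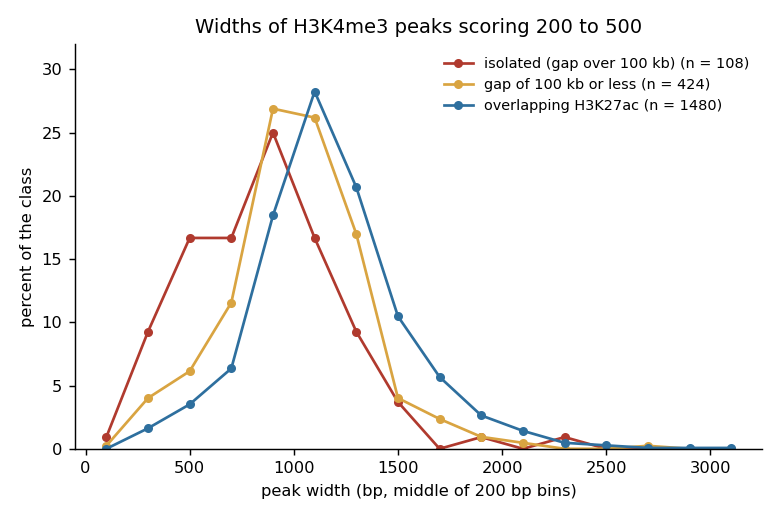
Distribution of peak width in 200 bp bins, as percent of each class, for H3K4me3 peaks scoring 200 to 500. Isolated peaks have 16.7% of their number in the bin from 400 to 600 bp, against 6.13% of nearer and 3.51% of overlapping peaks.

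The 29 narrow peaks were spread over 16 chromosomes. Their median width was 448 bp and their median score 265, close to the median score of 275 of the 79 wider isolated peaks, which had a median width of 980 bp. The narrowest was 196 bp on chromosome 3 (69767122 to 69767317) with a score of 453.66, the fifth highest of the whole set. It was followed in score by 386 bp on chromosome 18 (15991182 to 15991567, score 441.43), 479 bp on chromosome 1 (46109776 to 46110254, score 410.70) and 377 bp on chromosome 8 (111864548 to 111864924, score 409.67). These sites combine a high score for the set with widths below 546.5 bp, the median of the isolated peaks scoring 50 to 100. The narrow peaks had a median gap to H3K27ac of 273 kb (interval 180 to 503 kb) and the wider ones 195 kb (interval 176 to 229 kb), with intervals that overlapped. Over weak peaks without H3K27ac scoring 200 or more, the narrow share was 9.56% under 10 kb from H3K27ac (13 of 136), 8.75% at 50 to 100 kb (7 of 80), 21.2% at 100 to 200 kb (11 of 52), 25% at 200 to 500 kb (9 of 36) and 46.2% at 500 kb to 1 Mb (6 of 13, interval 19.2 to 74.9%). Over 1 Mb it was 42.9% (3 of 7, interval 9.90 to 81.6%). The share was 17.3% at 10 to 25 kb (19 of 110) and 5.10% at 25 to 50 kb (5 of 98), so the shares do not follow distance step by step. The interval at 100 to 200 kb, 11.1 to 34.7%, overlapped those at 10 to 25 kb (10.7 to 25.7%) and 50 to 100 kb (3.59 to 17.2%).

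**Figure D3:**
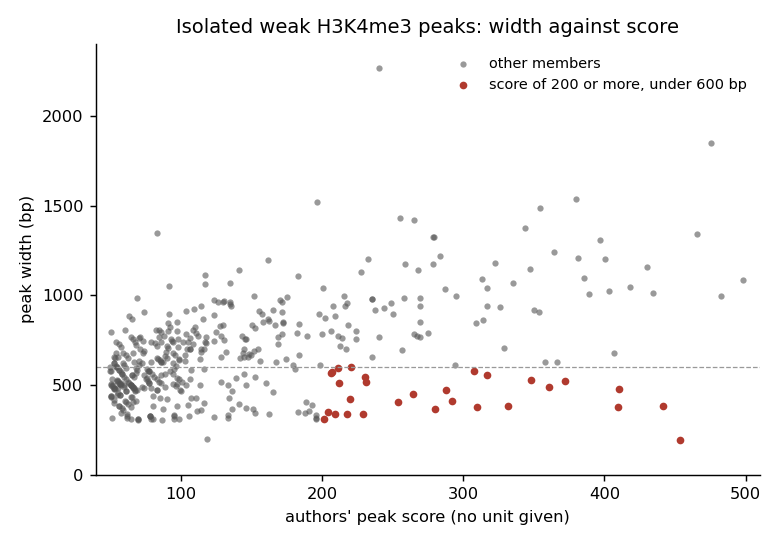
Width in bp against the authors' score for each of the 448 isolated weak H3K4me3 peaks, with the 29 peaks scoring 200 or more and narrower than 600 bp in red. The narrow peaks reach up to a score of 453.66, where the width is 196 bp, and the 4 peaks of higher score are 998 to 1847 bp wide.

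The highest-scoring peaks of the set included both forms. After the 1086 bp peak on chromosome 3 came 998 bp on chromosome 6 (37391337 to 37392334, score 482.35), 1847 bp on chromosome 6 (75246296 to 75248142, score 475.64) and 1339 bp on chromosome 15 (27395926 to 27397264, score 465.94). The others of the 10 highest, besides the 3 narrow peaks on chromosomes 3, 18 and 1, were 1012 bp on chromosome 1 (116061514 to 116062525, score 434.24), 1160 bp on chromosome 6 (52171159 to 52172318, score 429.97) and 1047 bp on chromosome 5 (52244368 to 52245414, score 417.97). The 7 that were not narrow measured 998 to 1847 bp. The 1847 bp peak on chromosome 6 was also the second widest of the set, and its nearest neighbour among H3K4me3 peaks was 1199 kb away. The 1012 bp peak on chromosome 1 lay 2300 kb from H3K27ac on its left and 4144 kb on its right.

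The widest peak, 2267 bp on chromosome 18 (60535403 to 60537669), scored 240.71 and lay 4.21 kb from a second isolated peak that scored 126.76. After the 1847 bp peak on chromosome 6, the next in width were 1534 bp on chromosome 2 (9810309 to 9811842, score 380.16) and 1518 bp on chromosome 18 (47811809 to 47813326, score 196.83). One of the 10 widest had a low score, at 83.17 over 1347 bp on chromosome 4 (146823204 to 146824550). The other 5 measured 1339 to 1484 bp, and the most remote of them, on chromosome 14 (93002067 to 93003550), was 1279 kb from H3K27ac.

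The most remote peaks on placed chromosomes were narrow, and most scored low. The 2 most remote were on the X chromosome, in the longest H3K27ac-free stretch that held any of the set, which was 8393 kb long and held 3. One (27161358 to 27161855) was 498 bp wide, scored 65.01 and lay 3874 kb from H3K27ac. The other (28718081 to 28718491) was 411 bp wide, scored 291.87 and lay 2962 kb away. The next were 559 bp on chromosome 4 (29453153 to 29453711, score 58.57) at 2574 kb, 579 bp on chromosome 15 (47721777 to 47722355, score 50.27) at 2470 kb and 512 bp on chromosome 14 (6240147 to 6240658, score 63.45) at 2365 kb. After these came the 1012 bp peak on chromosome 1 named above, at 2300 kb, which was neither narrow nor low in score (434.24). Across the 448 peaks, Spearman's rho with the gap to H3K27ac was -0.09 for score and -0.10 for width, both close to 0.

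Weak H3K4me3 peaks became sparser with distance from H3K27ac when counted against the length of DNA available. Each placed chromosome was measured from its outermost peak at one end to that at the other. Of this length, 2499 Mb lay outside H3K27ac peaks, and 1227 Mb of it (49.1%) was more than 100 kb from one. That territory held 446 of the 448 peaks, or 0.364 per Mb (interval 0.331 to 0.399). The remaining 1273 Mb held 1638 weak peaks without H3K27ac, or 1.29 per Mb (interval 1.23 to 1.35), 3.54 times as many per Mb. The territory includes gaps in the assembly and repeats to which reads cannot be placed, and these were not removed. Their part in the result was not tested.

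Within the far territory the number per Mb was 0.538 at 100 to 200 kb (interval 0.464 to 0.620), 0.337 at 200 to 500 kb (interval 0.287 to 0.393), 0.262 at 500 kb to 1 Mb (interval 0.203 to 0.332) and 0.197 beyond 1 Mb (interval 0.130 to 0.287). On the near side it was 0.996 at 50 to 100 kb (interval 0.891 to 1.11) and 1.49 under 10 kb (interval 1.36 to 1.62). The classes beside the 100 kb limit thus differed, but each interval beyond 200 kb overlapped that of the next class. H3K4me3 peaks of higher score without H3K27ac were fewer at each distance. Those scoring 500 or more numbered 0.283 per Mb within 100 kb (interval 0.254 to 0.314) and 0.0514 beyond (interval 0.0395 to 0.0657), 5.51 times fewer beyond. Of the 511 H3K4me3 peaks more than 100 kb from H3K27ac, 448 scored below 500 (87.7%, interval 84.5 to 90.4%), compared with 1653 of 2014 at smaller gaps (82.1%, interval 80.3 to 83.7%). Beyond 1 Mb from H3K27ac, 27 weak peaks and 1 peak of higher score were called on placed chromosomes.

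**Figure D4:**
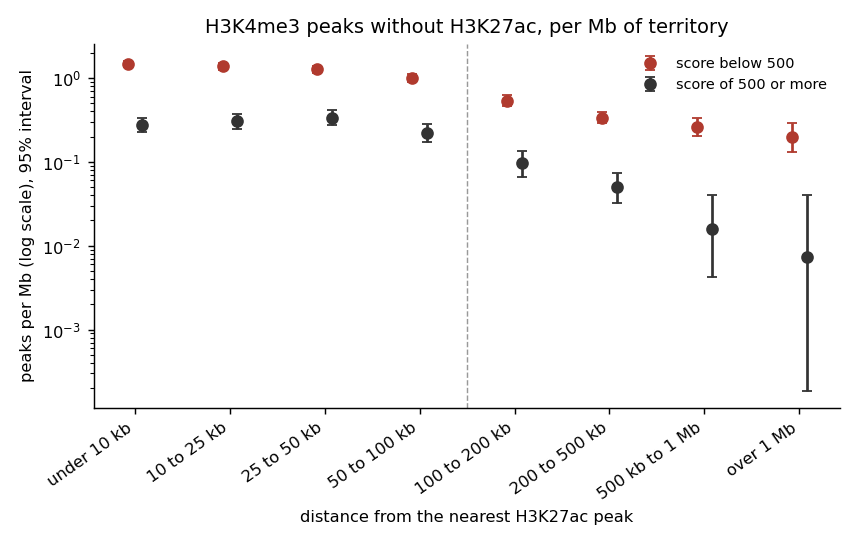
H3K4me3 peaks without H3K27ac per Mb of territory (log scale) in 8 classes of distance from the nearest H3K27ac peak, for scores below 500 and of 500 or more; bars are exact 95% Poisson intervals and the dashed line marks 100 kb. Weak peaks go from 1.49 per Mb under 10 kb to 0.197 per Mb beyond 1 Mb.

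Most H3K27ac-free stretches held none of these peaks. Between pairs of neighbouring H3K27ac peaks there were 2450 stretches longer than 200 kb, 1714 Mb in all, and 347 of them (14.2%) held at least 1 isolated weak peak. A stretch of over 200 kb is the shortest that the rule allows. Occupied stretches had a median length of 891 kb, against 395 kb for the others. The occupied share was 2.96% at 200 to 300 kb (22 of 744), 19.0% at 500 to 1000 kb (112 of 589) and 41.8% at 2000 kb or more (56 of 134), and longer stretches contain more of the territory that the rule allows. Per Mb of the part that the rule allows, the order was the opposite, with 0.717 peaks in the shortest class (interval 0.455 to 1.08) and 0.242 in the longest (interval 0.194 to 0.297). In short stretches the allowed part lies close to the 100 kb limit, so this order in part repeats the fall with distance given above. Stretch length and distance were not separated. The longest stretch with none was 7647 kb on chromosome 7 (39057229 to 46704230).

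The stretch with the most isolated weak peaks lay on chromosome 7 (7253602 to 10723456), with 5 in 3470 kb, and the next on chromosome 5 (25280655 to 28116754), with 4 in 2836 kb. Neither held an H3K4me3 peak of 500 or more that was itself isolated. On chromosome 7 the 5 peaks were spaced widely, each at least 261 kb from any other H3K4me3 peak. With the stretches at chromosome ends included, 17 held 3 peaks each, 56 held 2 and 274 held 1.

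Neighbouring H3K4me3 peaks were also distant, which the rule brings about in part, since most H3K4me3 peaks carry H3K27ac and cannot lie near a chosen peak. The nearest other H3K4me3 peak was at a median gap of 196 kb (interval 177 to 228 kb). The median was 19.6 kb for the nearer weak peaks (interval 17.8 to 21.3 kb) and 17.4 kb over all H3K4me3 peaks. For the 63 H3K4me3 peaks of 500 or more that were also over 100 kb from H3K27ac it was 164 kb (interval 122 to 226 kb), which overlapped the interval of the weak set, and 15.9% of them (interval 7.88 to 27.3%) had an H3K4me3 neighbour within 100 kb. Another H3K4me3 peak lay within 100 kb of 97 isolated weak peaks (21.7%, interval 17.9 to 25.8%), against 89.2% of all H3K4me3 peaks. For 70 of these 97 the closest neighbour was another of the isolated weak peaks, for 16 a nearer weak peak and for 8 an isolated peak of 500 or more. Within 1 kb, 20 isolated weak peaks (4.46%, interval 2.75 to 6.81%) had another H3K4me3 peak, against 7.14% of all H3K4me3 peaks, whose neighbours may be acetylated. All 20 of these neighbours belonged to the set. Among the nearer weak peaks, 2.96% (interval 2.20 to 3.90%) had a neighbour of their own class within 1 kb, with an interval that overlapped.

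Most of the set stood alone. At a spacing of up to 100 kb, 377 peaks had no other isolated weak peak beside them, 62 formed 31 pairs and 9 formed 3 runs of 3. The share with a companion was 15.8% (interval 12.6 to 19.6%), while 61.5% of all weak H3K4me3 peaks had another weak peak at that distance, a contrast that the rule brings about in part. The gap within a pair ranged from 0.003 to 99.9 kb with a median of 8.62 kb. In 10 pairs it was at most 1 kb, and whether these are single sites divided when the peaks were called was not tested. The closest pair lay on chromosome 1 (128835815 to 128837549), its parts separated by 3 bp and scoring 117.59 and 149.98. The next closest pairs, on chromosomes 1, 4, 1 and 6, had gaps of 0.020 to 0.085 kb.

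The 3 runs differed in their surroundings. On chromosome 6 (52171159 to 52256640) the members scored 429.97, 59.97 and 244.28 and measured 1160, 498 and 931 bp. A peak of 1196 bp and score 610.92 (52162343 to 52163538), itself 132 kb from H3K27ac, preceded them by 7.62 kb. Thus 4 H3K4me3 peaks without a called H3K27ac peak followed each other here. The nearest H3K27ac peaks, to the left, were 2 that both overlapped weak H3K4me3. To the right the next was 170 kb away and carried no H3K4me3.

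On chromosome 2 (105394412 to 105516873) the run held only low scores, 94.59, 54.01 and 62.69, at widths of 740, 608 and 519 bp. It lay between 2 H3K27ac peaks that each overlapped an H3K4me3 peak with a score of 3100. A further weak peak (105288389 to 105289079, score 72.46) lay 48.3 kb from the left one, too near for the set. On chromosome 5 (26333616 to 26402819) the scores were 328.87, 366.53 and 63.26 and the widths 704, 629 and 885 bp. No H3K27ac peak and no other H3K4me3 peak lay within 250 kb of this run, and its members were 1053 to 1121 kb from H3K27ac. It accounts for 3 of the 4 peaks of the stretch named above.

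**Figure D5:**
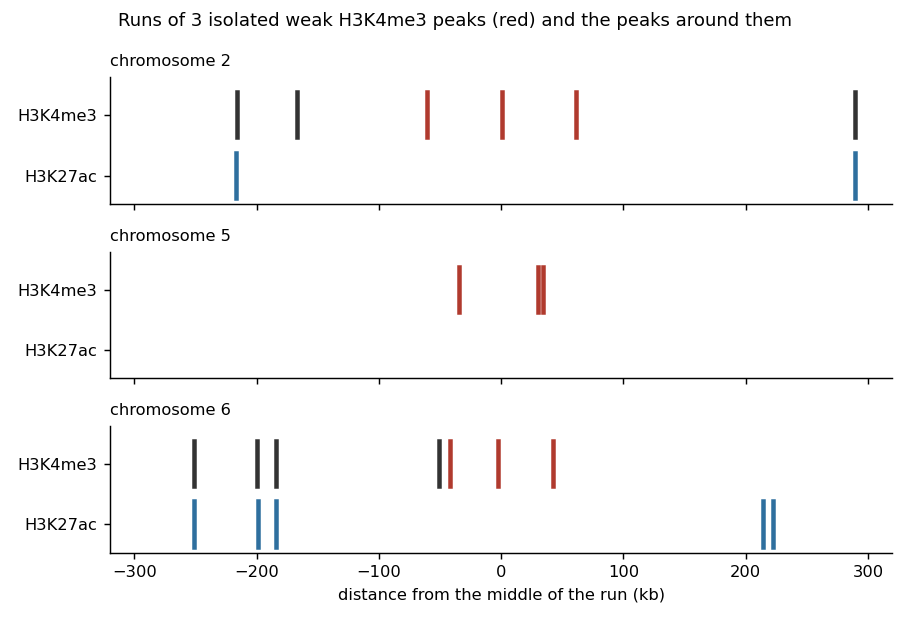
Positions of H3K4me3 and H3K27ac peaks within 250 kb of the 3 runs of 3 isolated weak H3K4me3 peaks, in kb from the middle of each run, with the isolated weak peaks in red, other H3K4me3 peaks in black and H3K27ac in blue. The run on chromosome 5 has no other peak of either mark in view, while those on chromosomes 2 and 6 are flanked by peaks of both marks.

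Few higher-scoring isolated peaks existed to lie beside the set, so a low count of such neighbours does not show that they lie apart. Of the 448 peaks, 10 lay within 100 kb of 1 of the 63 H3K4me3 peaks that scored 500 or more at a gap over 100 kb, and 3 of these 10 belonged to the run on chromosome 6. The closest was on the X chromosome (90542121 to 90542907, score 200.11), 7.11 kb from a peak scoring 667.76. The 1534 bp peak on chromosome 2 lay 8.14 kb from a 2396 bp peak that scored 1574.26. On chromosome 15 a peak of 579 bp (89438095 to 89438673, score 92.11) lay 15.1 kb from a peak that scored 3100.

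The nearest H3K27ac peak was recorded for each of the 448 peaks, with 385 distinct H3K27ac peaks among them. Over the 448, its median score was 673 (interval 435 to 855) and its median width 1662 bp (interval 1521 to 1799 bp), and the medians of all H3K27ac peaks, 710 and 1782 bp, lay within these intervals. For 88 isolated weak peaks (19.6%, interval 16.1 to 23.6%) it scored 3100 or more, while 24.1% of all H3K27ac peaks did, just above that interval. The share was 23.3% (interval 21.3 to 25.4%) for nearer weak peaks and 20.6% (interval 11.5 to 32.7%) for isolated peaks of 500 or more. Both intervals overlapped that of the set. The nearest H3K27ac peak itself carried H3K4me3 for 272 isolated weak peaks (60.7%, interval 56.0 to 65.3%). This was lower than the 71.5% (interval 69.3 to 73.7%) for nearer weak peaks and higher than the 52.3% of all H3K27ac peaks. For the 63 isolated peaks of 500 or more it was 61.9% (interval 48.8 to 73.9%). For the other 176 isolated weak peaks it was a peak of H3K27ac alone.

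Chromosomes differed in how many of the set they held. The X chromosome and chromosome 18 had the highest shares of their H3K4me3 peaks in it, with 27 of 542 (4.98%, interval 3.31 to 7.17%) and 25 of 503 (4.97%, interval 3.24 to 7.25%). The 27 peaks on X had a median score of 77.2, the lowest of any chromosome. Without H3K4me3 scores below 100 the X share was 1.92% (interval 0.881 to 3.61%). The whole set fell as well, from 448 to 240 peaks, so the drop was not confined to X. It was larger on X, where the median of 77.2 means that most peaks of the set scored below 100. In the whole set 46.4% did. Shares of the other chromosomes without those scores were not calculated. The 25 peaks on chromosome 18 had a median score of 152, so most of them would remain. Out of at most 503 H3K4me3 peaks, these give a share above the 1.92% of X, so X would not rank highest. Chromosomes 16 and 11 had the lowest, with 6 of 580 (1.03%, interval 0.381 to 2.24%) and 17 of 1422 (1.20%, interval 0.698 to 1.91%). The 3 H3K4me3 peaks of the Y chromosome included none, and 2 of the 448 were on unplaced contigs. Territory differed too, since 65.0% of the span of X and 37.1% of that of chromosome 11 were more than 100 kb from H3K27ac. Per Mb of that territory X held 0.260 peaks (interval 0.171 to 0.378) and chromosome 11 held 0.386 (interval 0.225 to 0.618), so the order of the 2 chromosomes turned, with intervals that overlapped. Chromosome 18 was the highest with 0.626 per Mb (interval 0.405 to 0.924) and chromosome 16 the lowest of the autosomes and X with 0.134 (interval 0.0490 to 0.291). Chromosome 16 had 44.9 Mb of such territory, similar to the 44.1 Mb of chromosome 11, and its 6 peaks had a median score of 85.5. With 20 chromosomes compared, some intervals can lie apart through counting error.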

How the data were processed

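Per the submitters' processing notes, the authors called peaks with MACS on mouse build mm9, and the deposited lists hold 1 library per mark. The value per peak is the authors' score, which the deposited files do not define. The lowest score was 50.01 in both lists. The list names carry a p limit of 1e-05, which equals 50 when written as a negative log10 and multiplied by 10, so the score may be on that scale. For the aligner, read filters and depth, nothing was given in the sources used here. No sequence or annotation of mm9 was used, so the planned analyses of start sites, CpG, GC, repeats, gene lists and cell type markers were not made, and no sequence is shown.

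Gaps count the bases between peak edges. The set and the comparison groups were chosen with earlier results of these data known. Named peaks are the 10 highest-scoring, the 10 widest, the 5 most remote on placed chromosomes (with the contig peak that exceeds them), those beside the limits, runs of 3 and those within 100 kb of an isolated peak of 500 or more. Narrow peaks, territory, stretches and H3K27ac neighbours were added after the data were seen. Code was tested on simulated peaks. Scripts ran under Python 3.11.15 with SciPy 1.17.1, NumPy 2.4.6, pandas 2.3.3 and matplotlib 3.10.9.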

Additional observations from a re-analysis of the deposited data

How the results depend on the processing

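Of 53 values from other settings, 37 were inside the main interval, or for the number of peaks within 1.5 times the main number, and 16 were not. The number of isolated weak peaks was 448 and became 776 with gaps over 50 kb, 257 with gaps over 200 kb and 240 without H3K4me3 scores below 100. Median width was 632 bp and became 669 bp with gaps over 50 kb and 763 bp without the scores below 100. At scores of 200 to 500 alone, a value not among the 53, the median of 879 bp also moved. It was 942 bp with gaps over 50 kb (interval 892 to 985 bp, n = 188). With gaps over 200 kb it was 769.5 bp (interval 629 to 978 bp, n = 56). The nearer group was not redrawn for these limits. The median gap to the nearest H3K4me3 peak became 106 and 355 kb with gaps over 50 and over 200 kb. The share with a companion within 100 kb became 10.0% without scores below 100 and 11.6% with peaks within 1000 bp joined, and was 12.3% within 50 kb and 19.6% within 200 kb. The share of X peaks became 7.20% with gaps over 50 kb, 7.20% with H3K27ac scores of at least 100 and 1.92% without H3K4me3 scores below 100. Limiting H3K27ac to scores of at least 100 kept all 448 peaks and added 127, of which 77 overlapped a weaker H3K27ac peak. The share of narrow peaks ranged from 19.1 to 32.2% over the changes of rule, which were added for it after the data were seen. Alternatives for start sites, CpG, GC and repeats were not run, as no mm9 genome was used. How many reads lie behind a score is unknown, so weak H3K27ac below the calling limit at these sites was not detectable from the lists.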
